A study of Mus musculus with 16 samples.

Results

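The keratin family was read in mandibular molar germs of *Rsk2-/Y* and wild-type (WT) mouse embryos at E14.5, the cap stage of tooth development. Its members were all probe sets with a single gene symbol made of Krt and a number, which left out the keratin-associated proteins (Krtap) and Krtcap genes. This gave 52 genes, each with 1 probe set, among 19938 gene symbols and 35556 probe sets. The tested embryos were *Rsk2-/Y* males, in which exon 2 of the X-linked *Rsk2* (*Rps6ka3*), the gene for a growth factor-activated serine/threonine kinase, is excised, and the controls were their WT littermate males, all on a C57Bl6 background. RNA of 8 *Rsk2-/Y* and 8 WT pools, each of 4 tooth germs, was hybridized to Affymetrix Mouse Gene 1.0 ST arrays. In each genotype, 4 pools carry names that start with AZN and 4 carry names that start with ABH, a split whose meaning the labels do not state, and which of the *Rsk2-/Y* germs would have made a supernumerary tooth was not known when they were pooled.

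Keratins are the intermediate filament proteins of epithelia. A type I and a type II keratin join as an obligate pair, and the filaments run between desmosomes, which tie cell to cell, and hemidesmosomes, which tie the basal cells to their matrix. Which pair a cell makes marks where it stands, with *Krt5* and *Krt14* in the basal layer of stratified epithelium, *Krt8* and *Krt18* in simple and embryonic epithelium, *Krt4* and *Krt13* in the upper layers of the oral mucosa, *Krt1* and *Krt10* in the upper layers of the epidermis, and a large set of hair keratins in the hair follicle. The enamel organ of the molar grows from the oral epithelium and is still joined to it at this stage. In mouse, the genes stand in a pair of clusters, 27 of the 52 on chromosome 11 and 25 on chromosome 15.

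The start sites of 4 keratins are shown first, *Krt5* for the basal layer, *Krt13* for the largest difference of the family between the genotypes, which passed no adjusted test, and *Krt75* and *Krt73* for the change between the AZN and ABH pools. Each sequence is the 300 bases from 250 before to 50 after the RefSeq start (GRCm38.p6, all on the minus strand, 5′ to 3′), at chr15:101712856-101713155 for *Krt5*, chr11:100121517-100121816 for *Krt13*, which has a further start downstream, chr15:101573855-101574154 for *Krt75* and chr15:101802311-101802610 for *Krt73*. Capitals mark ATAAAAG in the first 3, TATAAA in *Krt73* and, in *Krt75*, a GGGCGG read on the other strand.
Krt5 promoter: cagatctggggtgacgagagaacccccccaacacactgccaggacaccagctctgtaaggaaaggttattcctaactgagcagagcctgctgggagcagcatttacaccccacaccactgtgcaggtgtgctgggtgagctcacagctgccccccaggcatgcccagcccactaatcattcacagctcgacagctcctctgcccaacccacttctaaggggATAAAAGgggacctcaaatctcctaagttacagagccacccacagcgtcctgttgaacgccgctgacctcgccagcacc
Krt13 promoter: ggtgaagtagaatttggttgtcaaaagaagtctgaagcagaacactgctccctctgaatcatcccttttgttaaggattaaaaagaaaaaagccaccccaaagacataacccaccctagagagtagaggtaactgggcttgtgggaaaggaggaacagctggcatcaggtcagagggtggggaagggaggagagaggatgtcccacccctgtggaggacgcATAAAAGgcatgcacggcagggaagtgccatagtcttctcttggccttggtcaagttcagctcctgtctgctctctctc
Krt75 promoter: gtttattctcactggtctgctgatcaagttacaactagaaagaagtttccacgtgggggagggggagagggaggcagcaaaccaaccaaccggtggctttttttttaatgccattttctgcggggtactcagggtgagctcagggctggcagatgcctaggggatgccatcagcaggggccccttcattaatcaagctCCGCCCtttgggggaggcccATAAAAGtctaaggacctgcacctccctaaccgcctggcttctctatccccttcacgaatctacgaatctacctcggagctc
Krt73 promoter: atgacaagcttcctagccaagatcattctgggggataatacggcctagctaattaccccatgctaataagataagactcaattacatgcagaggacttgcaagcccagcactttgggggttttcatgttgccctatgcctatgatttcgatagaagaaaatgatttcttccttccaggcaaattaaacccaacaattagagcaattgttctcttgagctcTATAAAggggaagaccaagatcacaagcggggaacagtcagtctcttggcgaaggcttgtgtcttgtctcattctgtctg
In these windows ATAAAAG began 29 bases before the start of *Krt5* and of *Krt13* and 32 before that of *Krt75*, and TATAAA began 30 bases before that of *Krt73*. Of the 52 keratins, 36 were matched by symbol, with 37 windows. TATAAA or ATAAAAG, on either strand and with some overlap between them, began 20 to 40 bases before the start in 19 of the 37 windows, or 51.4%, and in 2.94% of all 32851 windows of that length. TATAAA alone began there in 13 of the 37, or 35.1%, and in 2.50% of all. Anywhere in the window, TATAAA stood in 51.4% of keratin windows and 13.62% of all, ATAAAAG in 35.1% and 5.41%, the AP-2 letters GCCNNNGGC in 18.9% and 16.6%, and GGGCGG in 5.41% and 35.7%. The 1 window of *Krt14*, the partner of *Krt5*, held none of the 4, and which start the gene uses in these germs was not tested. ATAAAAG was added after the windows had been seen.

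*Rps6ka3* itself (probe set 10602772) read 9.74 to 10.4 in *Rsk2-/Y* and 9.61 to 10.2 in WT pools, and since its probes are spread over the whole gene this signal hardly checks an excision of exon 2. Values are RMA signals on the log2 scale. Array medians ran from 6.74 to 6.94, and no pair of samples held identical values. Of the 35556 probe sets, 18834 have 1 gene symbol and a signal above 5 in at least 1 sample and were tested. Of the keratins, 48 met this minimum, and *Krt76*, *Krt74*, *Krt28* and *Krt86* did not. An absent signal on such arrays still reads near 5, and the signals of different probe sets are not amounts that can be set against each other.

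Of the 52 keratins, 16 had a mean signal of 7 or more over the 16 pools, and 9 had a mean under 5. The basal keratins *Krt5*, *Krt14* and *Krt15* averaged 12.1, 11.5 and 9.81. Of the simple keratins, *Krt8* averaged 9.73, *Krt18* 9.17, *Krt19* 8.83 and *Krt7* 8.36, while *Krt20*, a keratin of the gut lining, was near the minimum at 5.03. Of the keratins of appendages and stressed epithelium, *Krt17* averaged 12.1, *Krt6a* 8.26 and *Krt75* 8.17, and *Krt16* and *Krt6b* were near the minimum at 4.74 and 5.05. The 13 tested hair and nail keratins averaged 4.87 to 7.85, with *Krt33b* and *Krt87*, cortical keratins of the hair shaft, the 2 above 7. Close copies such as *Krt6a* and *Krt6b*, *Krt33a* and *Krt33b*, or *Krt14*, *Krt16* and *Krt17* share sequence, and how far their probes read the same transcripts is not known from the files.

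**Figure D1:**
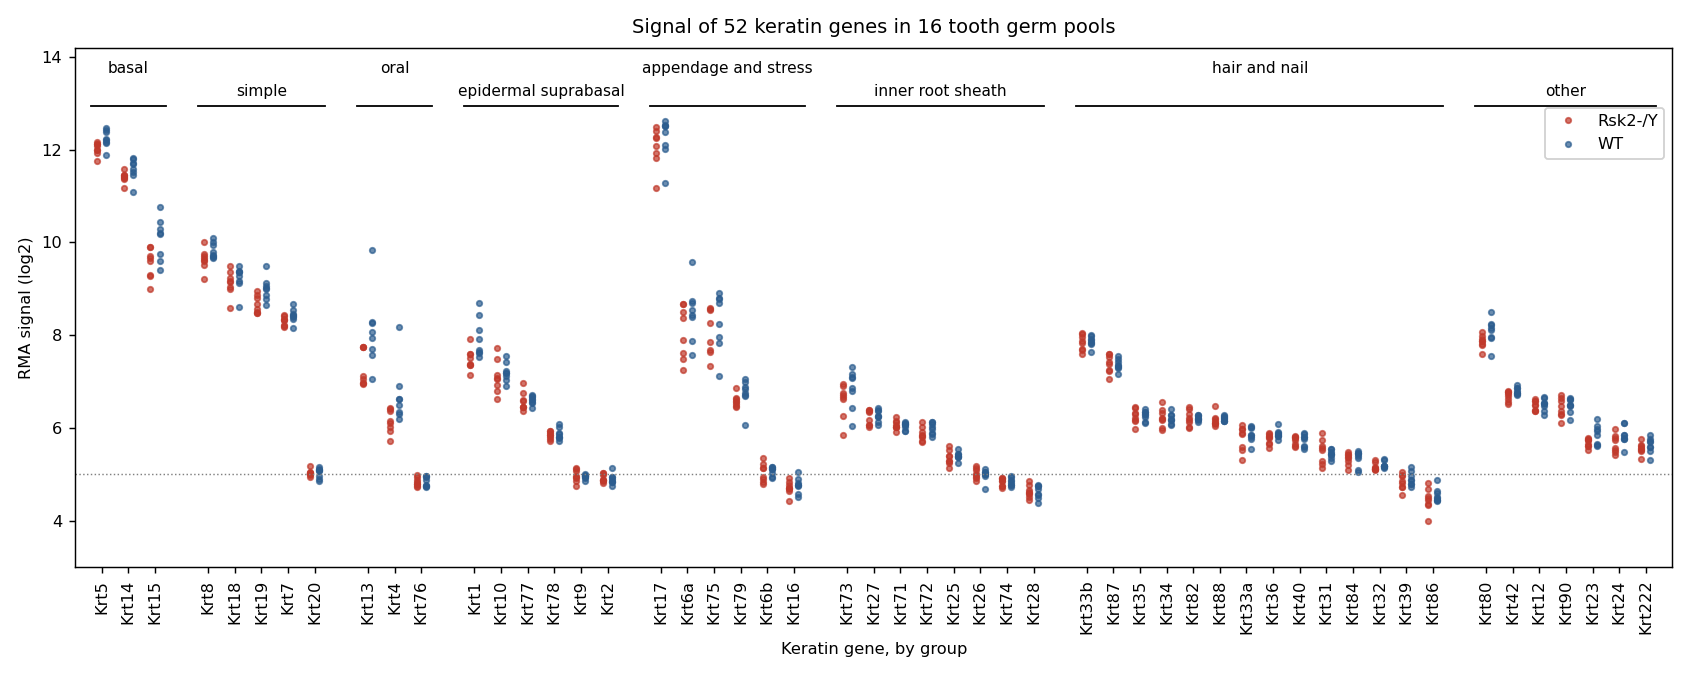
RMA signal (log2) of each of the 52 keratins in 8 Rsk2-/Y (red) and 8 WT (blue) pools, 1 point a pool, with the keratins grouped on the horizontal axis and a dotted line at the signal minimum of 5. The spread between pools is small for most genes, and 1 WT pool, at 9.82, 8.17 and 9.58, stands above the rest for Krt13, Krt4 and Krt6a.

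The first question was whether keratins differed between the genotypes. No keratin passed the test of *Rsk2-/Y* against WT pools (limma, Benjamini-Hochberg adjusted p under 0.1 and a fold change over 1.2), as 0% of all probe sets did in either direction, and the methods' t-test gave 0 as well. This departs from the paper, which reports genes changed in both directions on these same arrays at the same thresholds. Its qRT-PCR on molar RNA of both genotypes did not reproduce a selection of them. Its *Rsk2* knock-down in cultured germs moved *Eaf2* and *Rdh1* in the direction of its arrays. Why the array results differ was not tested. At an unadjusted p under 0.05, 9 of the 48 keratins were lower in *Rsk2-/Y* pools, or 18.8%, against 2.87% of all probe sets tested, and 0 were higher, against 1.18% of all. The 9 were *Krt1*, *Krt4*, *Krt5*, *Krt13*, *Krt15*, *Krt19*, *Krt23*, *Krt42* and *Krt80*. The difference was below 0 for 40 of the 48, with a median of -0.07 on the log2 scale, and for 59.3% of all probe sets, with a median of -0.01. Members of 1 family in the same tissue are not independent of each other, and the lowest adjusted p among them was 0.911, for *Krt19*.

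Epithelial genes that are no keratins were set beside these counts. The mean of 21 epithelial genes that are no keratins, among them *Cdh1*, *Epcam* and *Trp63*, was 8.73 ± 0.10 in *Rsk2-/Y* and 8.99 ± 0.18 in WT pools (SD, n = 8 each), with ranges of 8.49 to 8.83 in *Rsk2-/Y* and 8.59 to 9.14 in WT pools, and all 21 were lower in *Rsk2-/Y* pools, with a median difference of -0.28 and 16 at an unadjusted p under 0.05. Over all probe sets, 59.3% were below 0 and 2.87% were lower at that p. Genes of 1 tissue are not independent of each other, and none of the 21 passed the adjusted test. In pools of whole germs, fewer epithelial cells and less RNA per epithelial cell cannot be told apart. Of the WT pools only AZN_MolairesWT2, at 8.59, lay within the *Rsk2-/Y* range, and the next WT pool was at 8.92. The epithelial mean thus ran largely with genotype, and a fit that holds both separates them poorly. This limit holds wherever that mean is in a fit for genotype below. With the mean of these 21 genes in the fit, 26 of the 48 keratins were below 0, with a median of -0.02, against 52.01% of all probe sets. At an unadjusted p under 0.05 there were 3 of 48 in that fit, against 5.06% of all probe sets, and 2 of the 3, *Krt17* and *Krt18*, were higher in *Rsk2-/Y* pools, at 0.47 and 0.32, with *Krt15* lower. With series as a block besides, 24 of 48 were below 0 and the same 3 had an unadjusted p under 0.05, in the same directions, against 3.84% of all.

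**Figure D2:**
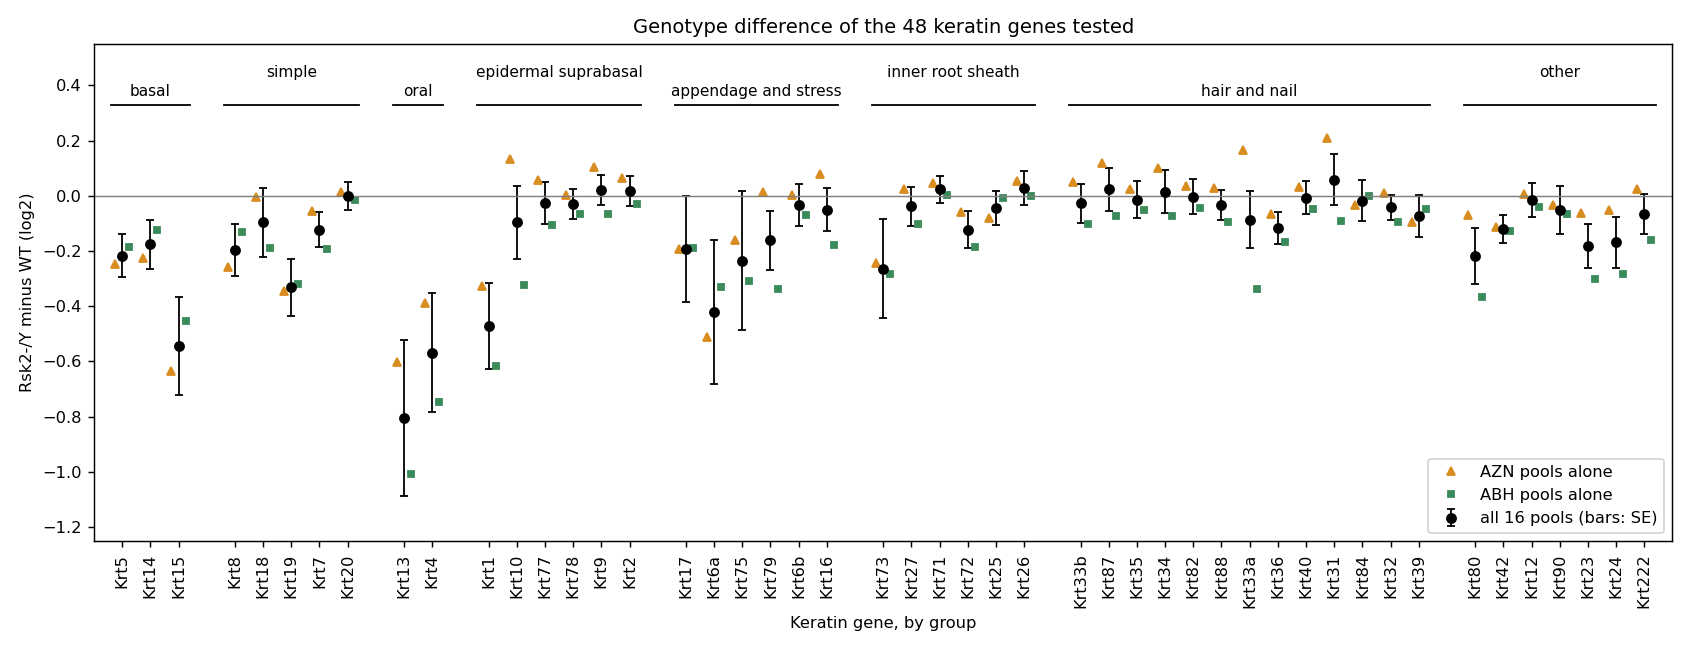
Difference between Rsk2-/Y and WT pools (log2, below 0 is lower in Rsk2-/Y) for the 48 keratins tested, by group. Black points with bars are the difference over all 16 pools and its SE, orange triangles the AZN pools alone and green squares the ABH pools alone, and the lowest points are those of Krt13, Krt4, Krt15 and Krt1.

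The basal keratins were lower in *Rsk2-/Y* pools by medians of 0.25 in the AZN and 0.19 in the ABH pools. Over all pools 2 of 3 were lower at an unadjusted p under 0.05, against 2.87% of all probe sets. *Krt15*, a basal type I keratin of stratified epithelium and hair follicle stem cells, ran from 8.99 to 9.90 in *Rsk2-/Y* pools with a median of 9.62, and from 9.41 to 10.8 in WT pools with a median of 10.2. The genotypes overlapped over all pools, but each of the 4 AZN *Rsk2-/Y* pools, at 9.66 to 9.90, lay below each of the 4 AZN WT pools, at 10.2 to 10.8. Its difference was -0.54 (SE 0.18, limma adjusted p = 0.995), -0.63 in the AZN and -0.45 in the ABH pools. With the epithelial mean in the fit it was -0.57, and with series as a block besides it was -0.31.

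*Krt5*, the type II keratin of the basal layer, ran from 11.8 to 12.2 with a median of 12.04 in *Rsk2-/Y* pools, and from 11.9 to 12.5 with a median of 12.2 in WT pools. Its partner *Krt14* ran from 11.2 to 11.6 with a median of 11.4 in *Rsk2-/Y* pools, and from 11.1 to 11.8 with a median of 11.6 in WT pools. The ranges of both genes overlapped, with the 8 *Rsk2-/Y* pools all below the WT mean. The difference was -0.22 (SE 0.08) for *Krt5* and -0.18 (SE 0.09) for *Krt14*. With the epithelial mean in the fit it was 0.04 and 0.13, and with series as a block besides 0.05 and 0.14.

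The 2 tested oral keratins had the lowest differences of the family together with *Krt15*. *Krt13*, the type I keratin of the upper layers of non-cornified oral mucosa, ran from 6.94 to 7.74 with a median of 7.08 in *Rsk2-/Y* pools, and from 7.05 to 9.82 with a median of 7.997 in WT pools. Its partner *Krt4* ran from 5.71 to 6.42 with a median of 6.12 in *Rsk2-/Y* pools, and from 6.18 to 8.17 with a median of 6.55 in WT pools. For both genes the highest value was that of the WT pool ABH_25A, and the other 7 WT pools reached 8.28 for *Krt13* and 6.91 for *Krt4*. The difference was -0.80 for *Krt13* (SE 0.28, limma adjusted p = 0.998), or 1.75-fold, and -0.57 for *Krt4* (SE 0.22, adjusted p = 0.9997). Without ABH_25A it was -0.56 and -0.36, with the epithelial mean in the fit it was -0.04 and -0.11, and with series as a block besides -0.08 and -0.09. *Krt76*, the keratin of the palate, did not reach the signal minimum.

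**Figure D3:**
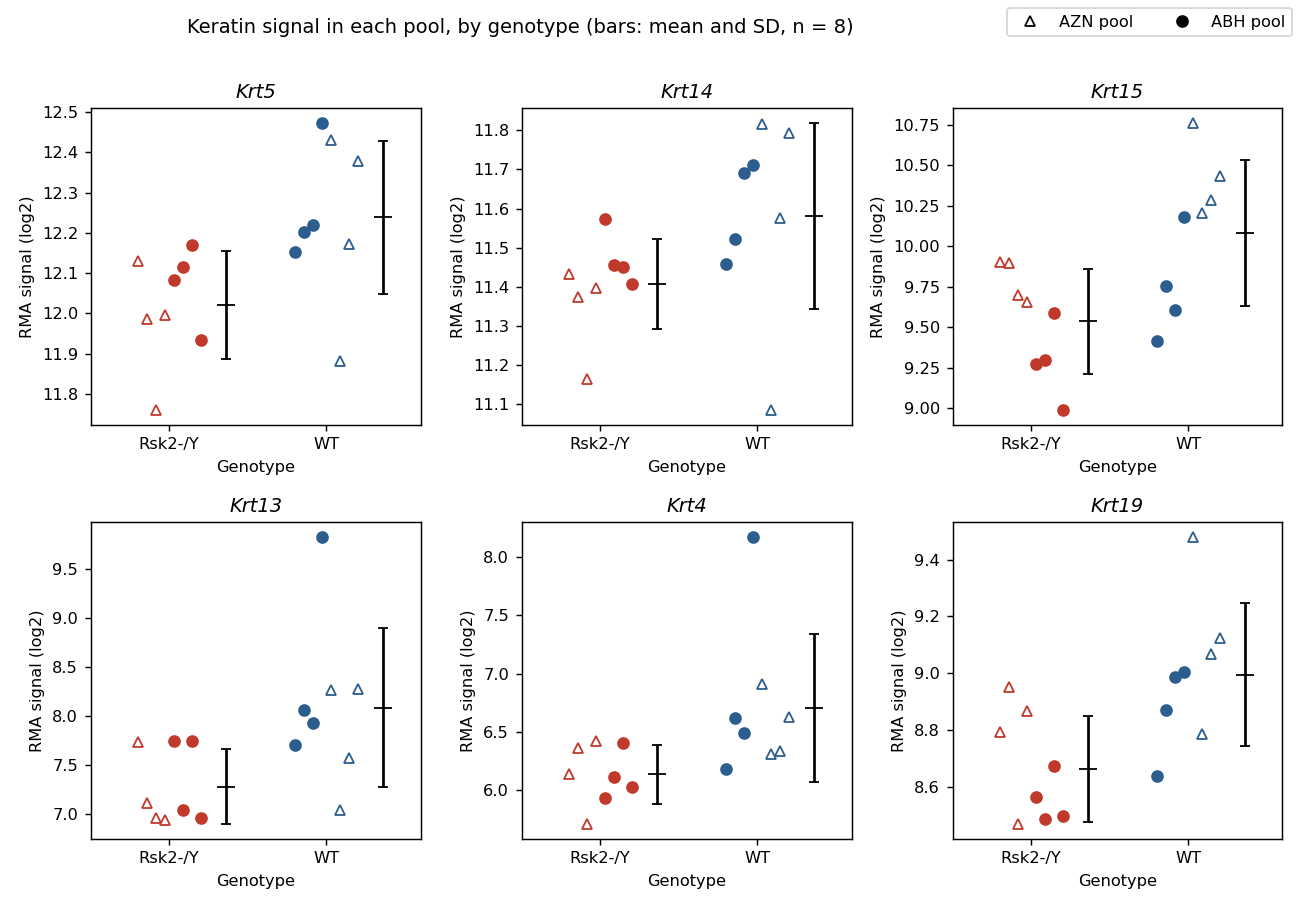
RMA signal (log2) of 3 basal keratins (Krt5, Krt14, Krt15), 2 oral keratins (Krt13, Krt4) and the simple keratin Krt19 in each Rsk2-/Y (left) and WT (right) pool, with open triangles for AZN and filled circles for ABH pools and bars for mean and SD (n = 8). The genotypes overlap in all 6 genes, and the top WT point of Krt13 and Krt4 is ABH_25A, at 9.82 and 8.17.

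Of the 5 simple keratins, 4 were below 0, against 59.3% of all probe sets. *Krt19*, a type I keratin of simple, glandular and some basal epithelia, ran from 8.47 to 8.95 with a median of 8.62 in *Rsk2-/Y* pools, and from 8.64 to 9.48 with a median of 8.996 in WT pools. The groups overlapped, and the 8 *Rsk2-/Y* pools lay below the WT mean. Its difference was -0.33 (SE 0.10, limma adjusted p = 0.911), close to the same in the AZN pools at -0.34 and the ABH pools at -0.32, and -0.15 with the epithelial mean in the fit. With series as a block besides it was -0.02 (unadjusted p = 0.778). The pair of *Krt8* and *Krt18* differed by -0.20 (SE 0.09) and -0.10 (SE 0.13), and *Krt7*, a keratin of glands and ducts, by -0.12 (SE 0.06). *Krt20* was level, at 5.03 in both genotypes.

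The upper-layer keratins of the epidermis were less alike. *Krt1* ran from 7.14 to 7.91 with a median of 7.44 in *Rsk2-/Y* pools, and from 7.52 to 8.70 with a median of 7.79 in WT pools, again highest in ABH_25A. The difference was -0.47 (SE 0.16, limma adjusted p = 0.995), -0.36 without that pool, -0.13 with the epithelial mean in the fit and -0.03 with series as a block besides. *Krt10*, its partner, differed by -0.10 (SE 0.13), with 0.13 in the AZN and -0.32 in the ABH pools. The other 4 of this group, *Krt77*, *Krt78*, *Krt9* of palm and sole and *Krt2* of the granular layer, lay between -0.03 and 0.02.

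All 6 keratins of appendages and stressed epithelium were below 0, against 59.3% of all probe sets, with a median of -0.18 and none at an unadjusted p under 0.05. *Krt17*, the type I keratin of placodes, outer root sheath and injured skin, ran from 11.2 to 12.5 with a median of 12.2 in *Rsk2-/Y* pools, and from 11.3 to 12.6 with a median of 12.4 in WT pools. *Krt6a*, its type II partner, ran from 7.24 to 8.67 with a median of 8.13 in *Rsk2-/Y* pools, and from 7.57 to 9.58 with a median of 8.49 in WT pools. *Krt75*, a type II keratin of the companion layer of hair, ran from 7.33 to 8.59 with a median of 8.05 in *Rsk2-/Y* pools, and from 7.11 to 8.90 with a median of 8.47 in WT pools. In both genotypes the AZN pools averaged below the ABH pools for these 3 genes, and for *Krt17* the AZN pools alone spread from 11.2 to 12.4. The genotypes overlapped broadly. The differences were -0.19 (SE 0.19), -0.42 (SE 0.26) and -0.24 (SE 0.25), and -0.26 for *Krt6a* without ABH_25A.

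The inner root sheath and the hair and nail keratins lay close to 0, with medians of -0.04 over 6 genes and -0.02 over 13, and none at an unadjusted p under 0.05. *Krt73*, of the inner root sheath cuticle, differed by -0.26 (SE 0.18) and *Krt26* by 0.03 (SE 0.06). The hair shaft keratins *Krt33b*, *Krt87* and *Krt31* differed by -0.03, 0.02 and 0.06, with SEs of 0.07, 0.08 and 0.09. The hair and nail keratins spanned -0.12 to 0.06, and that of *Krt31* was the highest difference among the 48 keratins. The 7 others were all below 0, against 59.3% of all probe sets, with a median of -0.12. Among them *Krt80*, a keratin found in many epithelia, ran from 7.60 to 8.07 with a median of 7.87 in *Rsk2-/Y* pools, and from 7.55 to 8.49 with a median of 8.13 in WT pools, and differed by -0.22 (SE 0.10). *Krt12*, the cornea's keratin, differed by -0.02 and *Krt90* by -0.05.

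The genotypes were also compared within each series. In the ABH pools 45 of 48 keratins were below 0, with a median of -0.13, against 62.0% of all probe sets, and in the AZN pools 24 of 48 were, with a median of -0.00013, against 51.3% of all. In the ABH pools 8 keratins, *Krt1*, *Krt7*, *Krt17*, *Krt32*, *Krt75*, *Krt79*, *Krt80* and *Krt222*, had each of the 4 *Rsk2-/Y* pools below each of the 4 WT pools, or 16.7%, against 5.78% of all probe sets. In the AZN pools this held for *Krt15* alone, against 0.871% of all. The difference between the series in the effect of genotype was tested as an interaction, which 0 keratins and 0% of all probe sets passed in either direction (limma). At an unadjusted p under 0.05 it had 2 of 48, the hair keratins *Krt31* and *Krt33a*, or 4.17%, against 6.31% of all probe sets. *Krt33a* averaged 5.95 in *Rsk2-/Y* and 5.78 in WT pools of AZN, and 5.59 in *Rsk2-/Y* and 5.93 in WT pools of ABH, a difference of 0.50 between the 2 effects (limma adjusted p = 0.728).

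Single pools stood apart in both genotypes. In the WT pool ABH_25A, *Krt13* at 9.82 and *Krt4* at 8.17 were 1.92 and 1.74 above the mean of the other 3 ABH WT pools, *Krt1* was 0.97 above and *Krt6a* 0.93 above. Of the 48 keratins 12 had their highest value of all 16 pools there, against 7.61% of all probe sets, *Krt17* among them at 0.11 above the same 3 pools, while *Krt75* was 0.02 below them (-0.02). The mean of 21 genes of upper epithelial layers and the cornified envelope was 7.23 in that pool and 6.58 to 7.002 in the other 15, with *Ly6d* at 7.92 and *Spink5* at 6.59, while its epithelial mean, 9.14, was next to that of another WT pool at 9.12. In AZN_MolairesMutant3 the epithelial mean was 8.49, the lowest of all, 10 of 48 keratins had their lowest value, against 12.01% of all probe sets, and the means of the skeletal muscle and osteoblast genes were the highest of all, at 9.74 and 10.5. The WT pool AZN_MolairesWT2 had the lowest epithelial mean of the WT pools, 8.59, and their highest muscle mean, 8.84. Without it, 15 keratins had an unadjusted p under 0.05 between the genotypes, in place of 9, against 6.58% of all probe sets, in place of 4.05%, and 10 probe sets but no keratin passed the adjusted test. How far these other tissues take part in the keratin differences was not tested.

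The genes that anchor keratin filaments were lower in *Rsk2-/Y* pools as well. Of 19 genes of desmosomes and hemidesmosomes, 16 were below 0, with a median of -0.19, 11 had an unadjusted p under 0.05, all of them lower, and none passed the adjusted test. Over all probe sets, 59.3% were below 0 and 2.87% were lower at that p. Genes of 1 tissue are not independent of each other. The mean of the 19 was 8.99 ± 0.12 in *Rsk2-/Y* and 9.18 ± 0.16 in WT pools (SD, n = 8 each). *Dsg3*, the desmosomal cadherin of basal layers, differed by -0.45 (SE 0.15, limma adjusted p = 0.998) and *Dsc2*, a partner cadherin, by -0.34 (SE 0.09, adjusted p = 0.824). Near 0 were *Dst* at 0.06, *Plec* at 0.02 and *Itga6* at -0.03 of the hemidesmosome, and *Pkp2* of the desmosome at 0.04. Of the 21 genes of upper layers and cornified envelope 20 were below 0, with a median of -0.13. At an unadjusted p under 0.05 there were 7, all lower, beside the same shares over all probe sets. The mean of the 21 was 6.74 ± 0.08 in *Rsk2-/Y* and 6.91 ± 0.16 in WT pools. *Sectm1b* at -0.55 and *Ly6d* at -0.49 were the lowest of the 21. The paper names *Sectm1b* the most down-regulated gene of these same arrays, so its fall here adds no separate evidence. It is counted among the 20 below 0 and the 7 at that p, and it enters the mean of the 21. Levels in the list varied, with *Ivl* and *Sprr1b* near the minimum at means of 4.85 and 5.49. *Sprr1a*, *Tgm1* and *Cnfn* had means of 7.08, 7.43 and 7.01.

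Genes of other tissues in the pools were set beside the keratins. The mean of 14 dental mesenchyme genes was 10.2 in both genotypes, with a range of 9.77 to 10.3 in *Rsk2-/Y* and 9.90 to 10.3 in WT pools. That of 21 skeletal muscle genes was 8.52 ± 0.82 in *Rsk2-/Y* and 7.97 ± 0.43 in WT pools, with ranges of 7.38 to 9.74 in *Rsk2-/Y* and 7.43 to 8.84 in WT pools and 20 of 21 genes above 0. That of 6 osteoblast genes was 9.73 ± 0.38 in *Rsk2-/Y* and 9.43 ± 0.24 in WT pools, with all 6 above 0. Over all probe sets, 59.3% were below 0. The means of the muscle and the osteoblast genes thus lay above the signal minimum in all 16 pools. The mean of 8 endothelial genes was 9.19 in *Rsk2-/Y* and 9.28 in WT pools, that of 5 erythroid genes 9.06 in *Rsk2-/Y* and 9.04 in WT pools, and that of 8 Schwann cell and neuron genes 6.89 in *Rsk2-/Y* and 7.01 in WT pools.

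The second question was whether keratins that pair in filaments varied together between pools. It was asked within each series of 8 pools, *Rsk2-/Y* and WT together, over 20 relations in all, with exact two-sided permutation of the pairings, Benjamini-Hochberg adjustment and a threshold of 0.05 on the adjusted p. *Krt5* and *Krt14* had a Pearson r of 0.964 in the AZN pools (exact permutation p = 0.00052, adjusted p = 0.0052) with a Spearman rho of 0.976 (p = 0.00040, adjusted p = 0.0040). In the ABH pools their r was 0.761 (exact permutation p = 0.0123, adjusted p = 0.0246) and their rho 0.690 (p = 0.0694, adjusted p = 0.0991). Without the 2 pools farthest from the median of *Krt5*, r was 0.891 in the AZN pools and 0.368 in the ABH pools, where ABH_25A and ABH_26A were left out. Leaving out the farthest pools narrows the range, which by itself can lower r.

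*Krt5* and *Krt15* had an r of 0.972 (exact permutation p = 0.00012, adjusted p = 0.0025) and a rho of 0.976 (p = 0.00040, adjusted p = 0.0040) in the ABH pools, and r was 0.905 without the 2 farthest pools. In the AZN pools r was 0.801 (exact permutation p = 0.0182, adjusted p = 0.0331) and rho 0.762 (p = 0.0368, adjusted p = 0.0735). Without the 2 farthest of these pools, AZN_MolairesWT1 and AZN_MolairesWT, r was 0.422. *Krt6a* and *Krt17* had an r of 0.802 in the AZN pools and 0.737 in the ABH pools (exact permutation p = 0.0199 and 0.0106, adjusted p = 0.0331 and 0.0246), a rho of 0.905 in each (p = 0.0046, adjusted p = 0.0228), and an r of 0.773 and 0.654 without the 2 farthest pools. *Krt4* and *Krt13* had an r of 0.665 in the AZN pools (exact permutation p = 0.0668, adjusted p = 0.0891) and 0.943 in the ABH pools (p = 0.0057, adjusted p = 0.0228), with a rho of 0.452 and 0.762 (p = 0.267 and 0.0368, adjusted p = 0.297 and 0.0735) and an r of 0.356 and 0.914 without the 2 farthest pools, ABH_25A being 1 of those left out in the ABH pools.

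The simple pair *Krt8* and *Krt18* did not pass in either series, with an r of 0.447 in the AZN and 0.380 in the ABH pools (exact permutation p = 0.262 and 0.368, adjusted p = 0.292 and 0.387) and a rho of 0.500 and 0.381 (p = 0.216 and 0.360, adjusted p = 0.254 and 0.379). Without the 2 farthest pools r was -0.230 in the AZN pools and 0.147 in the ABH pools. *Krt1* and *Krt10* had an r of 0.067 in the AZN and 0.700 in the ABH pools (exact permutation p = 0.882 and 0.0526, adjusted p = 0.882 and 0.0752) and a rho of 0 and 0.690 (p = 1 and 0.0694, adjusted p = 1 and 0.0991). These values mix the difference between the genotypes with the spread among pools of 1 genotype.

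Against the mean of the 21 epithelial genes, *Krt4* had an r of 0.879 in the AZN and 0.703 in the ABH pools (exact permutation p = 0.0033 and 0.0079, adjusted p = 0.0165 and 0.0246) and a rho of 0.881 and 0.786 (p = 0.0072 and 0.0279, adjusted p = 0.0290 and 0.0735). *Krt13* had an r of 0.857 in the AZN and 0.781 in the ABH pools (exact permutation p = 0.0092 and 0.0017, adjusted p = 0.0246 and 0.0112) and a rho of 0.714 and 0.762 (p = 0.0576 and 0.0368, adjusted p = 0.0960 and 0.0735). *Krt15* had an r of 0.782 and 0.795 (exact permutation p = 0.0249 and 0.0122, adjusted p = 0.0383 and 0.0246), and a rho of 0.714 and 0.810 (p = 0.0576 and 0.0218, adjusted p = 0.0960 and 0.0726), in the AZN and the ABH pools. *Krt8*, with an r of 0.486 in the AZN and 0.555 in the ABH pools, did not pass (exact permutation p = 0.222 and 0.149, adjusted p = 0.261 and 0.186). The epithelial mean and these 4 keratins all averaged lower in *Rsk2-/Y* pools, and the permutations did not hold genotype fixed. A positive r here thus holds the genotype difference as well as the spread among pools of 1 genotype. Relations within 1 genotype were not tested. Without the 2 farthest pools the r of these 4 keratins was 0.394 to 0.719 in the AZN and 0.633 to 0.770 in the ABH pools, and over the 6 pools then left, 0 of the 20 relations had an adjusted p under 0.05, the lowest being 0.0556 for *Krt4* and *Krt13* in the ABH pools.

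**Figure D4:**
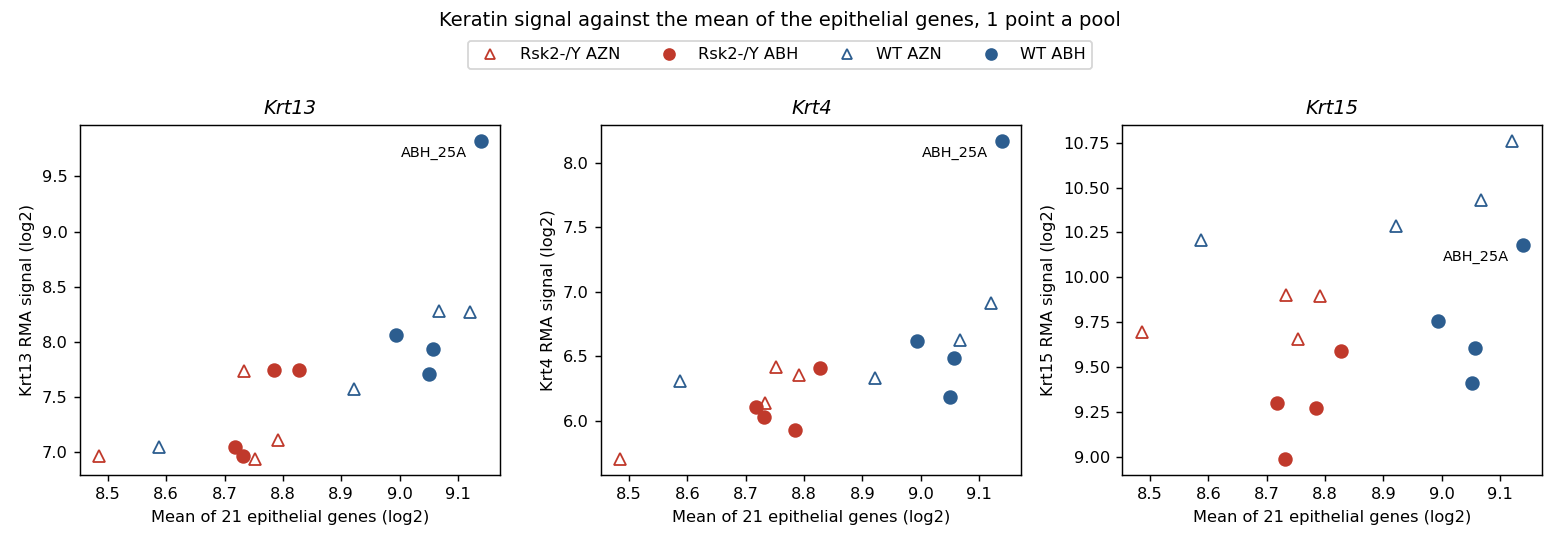
RMA signal (log2) of Krt13, Krt4 and Krt15 against the mean of 21 epithelial genes that are no keratins (log2), 1 point a pool, red for Rsk2-/Y and blue for WT, triangles for AZN and circles for ABH. The Rsk2-/Y pools lie between 8.49 and 8.83 and the WT pools between 8.59 and 9.14 on the horizontal axis, and ABH_25A lies far above the others for Krt13 and Krt4.

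The third question was whether keratins differed between the AZN and the ABH pools, tested with genotype in the fit. Of the 48 keratins, 1 was called higher in the AZN pools, or 2.08%, against 5.95% of all probe sets, and 4 were called lower, or 8.33%, against 10.6% of all. Both shares lay under those of all probe sets. The 4 that fell in the AZN pools were *Krt17*, *Krt6a* and *Krt75* of the appendage and stress group and *Krt73* of the inner root sheath group, and the 1 that rose was the basal keratin *Krt15*. Other members of these groups were not called, with differences of 0.10 for *Krt71*, 0.15 for *Krt72*, 0.14 for *Krt26*, 0.09 for *Krt27* and -0.04 for *Krt25* of the inner root sheath, and of 0.08 for *Krt6b*, -0.06 for *Krt79* and -0.0046 for *Krt16*. Over all 48, the median difference was 0.04, with 31 above 0, and 0.02 over all probe sets. What sets the series apart is not stated, and anything that differs between them cannot be told apart here.

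*Krt75* ran from 7.11 to 8.25 with a median of 7.75 in the AZN pools, and from 8.25 to 8.90 with a median of 8.65 in the ABH pools. It was the 1 keratin of 48 for which the series did not overlap, or 2.08%, against 8.95% of all probe sets in either direction. All 8 AZN pools lay below all 8 ABH pools in 5.42% of all probe sets. For *Krt75* the gap was narrow, 8.247 against 8.254. Its difference was -0.94 (SE 0.12, limma adjusted p = 2.0e-05). *Krt6a* ran from 7.24 to 8.43 with a median of 7.74 in the AZN pools, and from 8.36 to 9.58 with a median of 8.67 in the ABH pools, a difference of -0.91 (SE 0.15, limma adjusted p = 1.9e-04). *Krt17* ran from 11.2 to 12.4 with a median of 11.97 in the AZN pools, and from 12.2 to 12.6 with a median of 12.5 in the ABH pools, a difference of -0.60 (SE 0.13, limma adjusted p = 0.0022). Both of these overlapped only at the edge, where the highest AZN pools met the lowest ABH pools, and the SD of *Krt17* was 0.41 in AZN and 0.13 in ABH pools.

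*Krt73* ran from 5.84 to 7.11 with a median of 6.53 in the AZN pools, and from 6.67 to 7.32 with a median of 6.92 in the ABH pools, a difference of -0.46 (SE 0.14, limma adjusted p = 0.019). *Krt15* ran from 9.66 to 10.8 with a median of 10.1 in the AZN pools, and from 8.99 to 10.2 with a median of 9.50 in the ABH pools, a difference of 0.59 (SE 0.11, limma adjusted p = 4.7e-04). Its direction was the opposite of that of the other 4, and it held in both genotypes, with means of 9.79 in AZN and 9.29 in ABH *Rsk2-/Y* pools, and of 10.4 in AZN and 9.74 in ABH WT pools. *Krt75* likewise averaged 7.62 in AZN and 8.49 in ABH *Rsk2-/Y* pools, and 7.79 in AZN and 8.80 in ABH WT pools. With the epithelial mean in the fit all 5 stayed past the threshold, at -0.77 for *Krt75*, -0.72 for *Krt6a*, -0.39 for *Krt17*, -0.39 for *Krt73* and 0.68 for *Krt15*. In that fit 7 of the 48 keratins were called, against 2773 of 18834 probe sets. *Krt19* at 0.35 and *Krt31* at 0.30, both higher in the AZN pools, were called there as well.

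**Figure D5:**
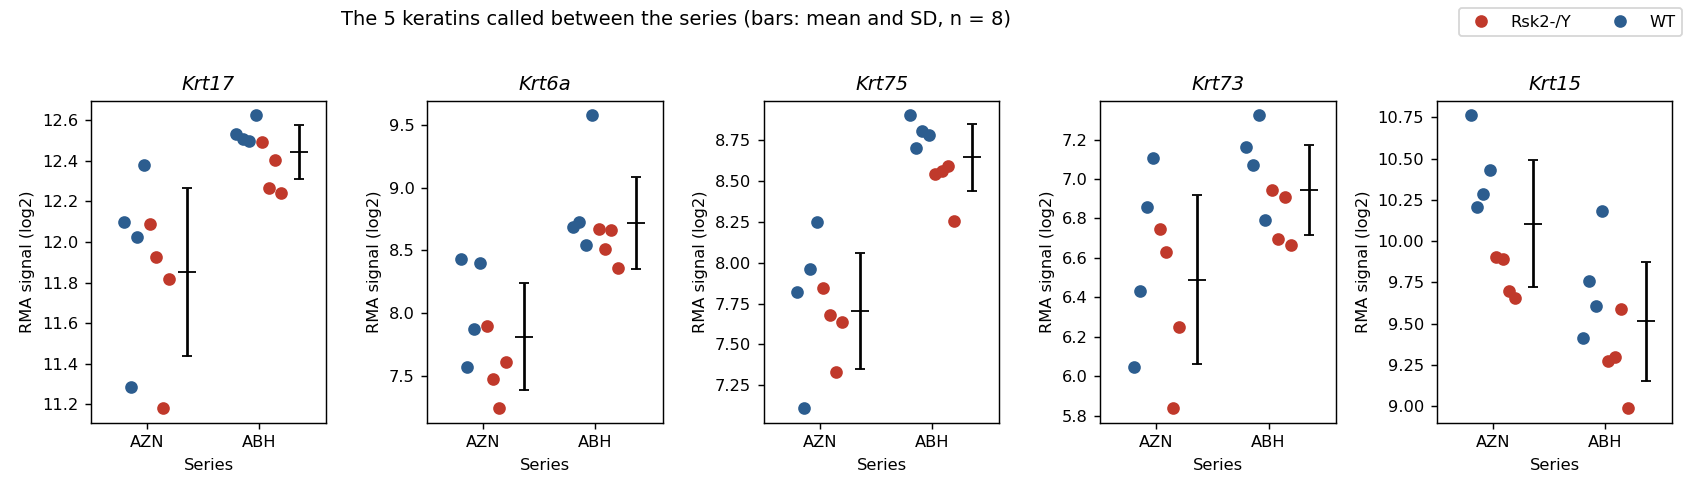
RMA signal (log2) of the 5 keratins called between the series, in the AZN (left) and ABH (right) pools, red for Rsk2-/Y and blue for WT, with bars for mean and SD (n = 8). Krt17, Krt6a, Krt75 and Krt73 are lower and Krt15 is higher in the AZN pools, in both genotypes.

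The hair keratin *Krt31* and the keratin *Krt90* had adjusted p-values of 0.0069 and 0.011 (limma) but differences of 0.26 and 0.23, under the fold change of 1.2. Including these, 14 keratins had an adjusted p under 0.1 at any fold, 9 higher and 5 lower in the AZN pools. *Krt5* and *Krt14* differed by -0.08 each (SE 0.08 and 0.09), so that of the 3 basal keratins *Krt15* alone was called. *Krt13* differed by -0.39 (SE 0.27) and *Krt4* by -0.14 (SE 0.22), both without a call. Between the series the epithelial mean differed by -0.11, that of the skeletal muscle genes by 0.58 and that of the erythroid genes by 0.59, and their part in the keratin differences beyond the fit above was not tested.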

How the data were processed

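Each value is a log2 signal of a probe set, as the authors deposited it. The submitters' processing notes name RMA, which corrects background, equalises arrays and summarises probes, and Affymetrix Expression Console 1.3.1.187. Nothing was normalized further. With 8 arrays a genotype, array number sets the precision, and 20% of values lay under 4.79. Labels gave the genotype of a pool, and which pools share a litter is not stated, so p-values measure the spread between these pools. The platform's symbols were used as given, and all 52 keratins matched RefSeq (GRCm38.p6) by gene ID, 1 of them (*Krt74*) as a transcribed pseudogene.

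Comparisons were two-sided in limma 3.58.1, R 4.3.3 (moderated linear fits by lmFit and eBayes) over 18834 probe sets with 1 symbol and a signal above 5 in at least 1 sample, without covariates for genotype and with genotype in the fit for the series, and calls needed an adjusted p under 0.1 and a fold change over 1.2, after the study's methods. For the arrays the methods name Partek but no test. Their general section on statistics names a Student t-test for 2 groups, which was run here with equal variances. Correlations used NumPy 2.4.6 in Python 3.11.15. The limma fits and the permutations were checked on simulated data.

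The members, the keratin groups and the lists of other genes were chosen with earlier results of these data known. Of the lists, 20 symbols of other genes and *Krt81*, *Krt83* and *Krt85* have no probe set of their own here or were not tested. Keratins named are those with a mean signal of 7 or more, the 3 that changed most in either direction between genotypes and between series, and any called. Others are named with their group, or after their values were seen. Alternatives covered the test, series as a block, array weights, variance model, filters, scaling, the epithelial mean, each series alone and leaving out samples. The raw arrays were not used here.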

Additional observations from a re-analysis of the deposited data

Results flagged for a closer look

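In 9 of 60 sets of 8 pools (21 keratins and 9 marker list means in each genotype), a single pool lay farther from the next than Dixon's limit for 8 values allows, and chance alone flags about 1 in 20. The WT pool ABH_25A was the highest WT pool for *Krt13*, at 9.82 with the next at 8.28, and for *Krt4*, at 8.17 with the next at 6.91. The WT pool AZN_MolairesWT2 was the lowest WT pool for *Krt17*, at 11.3 with the next at 12.02, for *Krt18*, at 8.60 with the next at 9.11, and for the mean of the epithelial genes, at 8.59 with the next at 8.92. The WT pool ABH_13A was the lowest for *Krt26*, at 4.69 with the next at 4.96, both under the signal minimum. The *Rsk2-/Y* pool AZN_MolairesMutant3 was the lowest of its genotype for the mean of the epithelial genes, at 8.49 with the next at 8.72, for that of the keratin anchoring genes, at 8.73 with the next at 8.98, and for that of the dental mesenchyme genes, at 9.77 with the next at 10.1.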

How the results depend on the processing

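No keratin was called between genotypes under any of 31 alternatives, or in the interaction under 24, and 5 to 7 were called between the series under 25. The count of keratins at an unadjusted p under 0.05 between genotypes was 9, against 4.05% of all probe sets, and it was 18 against 12.99% in the ABH pools alone, 5 against 2.89% in the AZN pools alone, 16 against 7.94% with array weights, 11 against 6.98% with series as a block and 3 against 5.06% with the epithelial mean in the fit. The AZN names share the numbers 1 and 3 and an unnumbered pair, whose deviations correlated at 0.057 to 0.55, so the numbers were not taken to pair samples, and the replicate block over these 6 pools called 0 keratins, with 12 at an unadjusted p under 0.05, against 7.11% of all probe sets. Of 649 values of single keratins between genotypes, 36 turned their sign, and the cause was not tested. The epithelial mean, held in some of these fits, ran largely with genotype. With the epithelial mean in the fit the difference was 0.47 for *Krt17*, 0.041 for *Krt5*, 0.13 for *Krt14*, 0.32 for *Krt18*, 0.042 for *Krt7*, 0.31 for *Krt6a*, 0.47 for *Krt75*, 0.12 for *Krt80*, 0.072 for *Krt10*, 0.050 for *Krt73*, -0.0051 for *Krt87* and -0.0038 for *Krt26*. With series as a block besides it was 0.32 for *Krt17*, 0.053 for *Krt5*, 0.14 for *Krt14*, 0.34 for *Krt18*, 0.076 for *Krt7*, 0.034 for *Krt6a*, 0.18 for *Krt75*, 0.070 for *Krt80* and 0.12 for *Krt10*. In the ABH pools alone it was -0.072 for *Krt87* and -0.093 for *Krt31*, in the AZN pools alone 0.049 for *Krt33b* and 0.13 for *Krt10*, and with array weights -0.034 for *Krt87* and -0.00091 for *Krt31*. Without ABH_14A and AZN_MolairesMutant3 it was -0.020 for *Krt87* and 0.016 for *Krt10*, and under the replicate block 0.029 for *Krt33b* and 0.058 for *Krt90*. Leaving out 1 pool at a time gave -0.0078 to 0.071 for *Krt87*, -0.014 to 0.050 for *Krt26* and -0.060 to 0.0075 for *Krt33b*, and kept the sign of the other named keratins. All of these signs belong to differences that passed no adjusted test. Between the series, alternatives were run for *Krt15*, *Krt17*, *Krt6a*, *Krt73*, *Krt75*, *Krt31* and *Krt90*, whose signs held, and *Krt31* passed the fold change under 11 alternatives. Of the 20 correlations, 13 had an adjusted Pearson p under 0.05 and 0 did over the 6 pools left without the 2 farthest (lowest adjusted p = 0.0556, exact permutation), fewer samples being part of that setting, and r for *Krt8* and *Krt18* in the AZN pools turned to -0.230.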
